A study of Mus musculus with 6 samples.

Results

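The genes described here encode the enzymes and carriers of the tricarboxylic acid (TCA) cycle in MS-5 cells, from the entry of pyruvate into mitochondria to the routes that refill the cycle (anaplerosis) or exchange its intermediates with the cytosol. The set is a list of 31 gene names of this pathway, drawn up with earlier results of these data known and with no threshold on a measured value, of the 35968 genes with a transcript in the deposited files. All 31 passed edgeR's filter on low counts, as did 13221 genes in all. MS-5 is a mouse stromal cell line, and it was cultured alone (MS-5 only, libraries MO1, MO2 and MO3) or for 24 hr with SKM-1, a human acute myeloid leukaemia (AML) line, plated over the confluent stroma at 4 AML cells per stromal cell (co-culture, libraries MC1, MC2 and MC3). The labels name no other treatment, and all cells grew in the same medium. RNA was taken from the stromal layer after a wash and a mild trypsin treatment meant to remove leukaemic cells. Both groups come from a single stromal line, and the labels do not say whether the 3 libraries of a group were separate cultures, so p-values measure the spread between these libraries, which may be technical.

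Pyruvate made by glycolysis crosses the inner mitochondrial membrane through a carrier built of MPC1 and MPC2. Inside, pyruvate dehydrogenase turns it into acetyl-CoA, which citrate synthase joins to oxaloacetate, and the cycle then oxidises citrate stepwise back to oxaloacetate while reducing NAD and FAD for respiration. Pyruvate carboxylase, glutamate dehydrogenase and the transaminases put carbon into the cycle, malic enzymes and mitochondrial PEPCK take it out toward pyruvate and phosphoenolpyruvate, and carriers such as SLC25A10 and SLC25A11 move malate, succinate and oxoglutarate across the membrane.

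Total estimated counts ranged from 23978881 to 35694987 per library. MO2 and MC3 stood apart from the other 4 libraries on the second principal component (25.6% of the variance) of log2 CPM, counts scaled by library size and TMM factor, had counts for 65170 and 66456 transcripts beside 51533 to 57350 elsewhere, and held 6.07% and 5.92% of their counts in mitochondrially encoded genes against 10.6% to 13.2%. The labels give no batch that names these libraries, so the comparison was also made with a term for them. Of 12 stromal markers, 10 were tested and 0 passed edgeR's test at an adjusted p under 0.1. Their summed level was 8845 to 10742 CPM in MS-5 only against 11108 to 12317 CPM in co-culture, which left no overlap between the groups, while Lum and Dcn, markers of many fibroblasts, had at most 2 counts in any library. Of 14 leukocyte markers, 9 were tested and 6 were higher in co-culture (edgeR, adjusted p under 0.1), none of the 14 was at 0 in all 6 libraries, and their summed level was 21.2 to 38.3 CPM in MS-5 only against 61.5 CPM in MC1, 251 in MC2 and 57.7 in MC3. Lyz2 and Cd53 held most of the MS-5 only level, and the other 12, a subset chosen after the values were seen, summed to 1.68, 3.50 and 1.27 CPM in MS-5 only against 38.3, 227 and 39.3 CPM in MC1, MC2 and MC3. In such bulk samples, fewer cells of a type and less RNA per cell cannot be told apart.

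In the comparison of co-culture with MS-5 only, 0 of the 31 genes passed edgeR's quasi-likelihood test at an adjusted p under 0.1, which 4.38% of all genes tested passed. At an unadjusted p under 0.05, 0 of the 31 were lower and 0 higher, against 5.63% and 8.62% of all genes, and DESeq2 and limma also called 0 of the 31 at an adjusted p under 0.1, beside 9.59% and 2.69% of all genes. The lowest adjusted p was 0.438 (edgeR), for the dicarboxylate carrier Slc25a10, with a log2 fold change of -0.53. Of the 31 genes, 24 had a log2 fold change below 0, as did 52.5% of all genes tested, and their median was -0.12 beside -0.02 for all genes. The 7 genes above 0 were Pck2, Idh1, Idh2, Idh3b, Idh3g, Gpt and Slc25a11, and the values ran from -0.53 for Slc25a10 to 0.38 for Idh1.

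In CPM, much of the spread within each group lay between MO2 or MC3 and the other libraries. In 27 of the 31 genes (87.1%, against 36.9% of all genes) MO2 was the lowest MS-5 only library and MC3 the lowest co-culture library in CPM. The exceptions were Pcx, Idh1, Idh2 and Gpt. This order depended on the scaling. MO2 and MC3 had TMM factors of 1.166 and 1.175, against 0.923 to 0.927 elsewhere. In TPM, the deposited values scaled by transcript length, Mpc1 alone of the 31 kept the order. Dld, for example, had 72.3, 88.6 and 57.0 TPM in MS-5 only against 58.5, 56.2 and 77.9 in co-culture, with MO2 and MC3 highest. Compared in CPM within the pair MO2 and MC3 and within the other 4 libraries, 21 genes were lower in co-culture in both (67.7%, against 42.3% of all genes), 2 were higher in both (Idh1 and Pck2, against 36% of all genes) and 8 differed in direction. With a covariate for these libraries, the median standard error of the 31 log2 fold changes was 0.08, against 0.22 without it, and 9 genes passed edgeR's test, all of them lower in co-culture. These were Mpc1, Mpc2, Dld, Me2, Aco1, Idh3a, Glud1, Got1 and Slc25a10, which are 29.0% of the list beside 16.4% of all genes called lower in the same fit, while 0 of the 31 were called higher beside 13.9%. The split was taken from these same expression values, and the standard errors and adjusted p-values with the covariate make no allowance for that choice. Over all genes, the fit with the covariate called 3999, against 579 without it. When MO2 and MC3 were instead left out, which left MO1 and MO3 against MC1 and MC2, 4 genes passed. Mpc1, Idh3a and Slc25a10 were lower (the background was 4.64%) and Pck2 was higher (8.02%). Leaving out any single library gave 0 of the 31, beside 0% of all genes tested without MO1, MO2 or MO3, and 2.02%, 2.04% and 4.11% without MC1, MC2 or MC3. A block for the replicate number also gave 0, beside 3.35% of all genes called higher and 0.00756% lower.

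**Figure D1:**
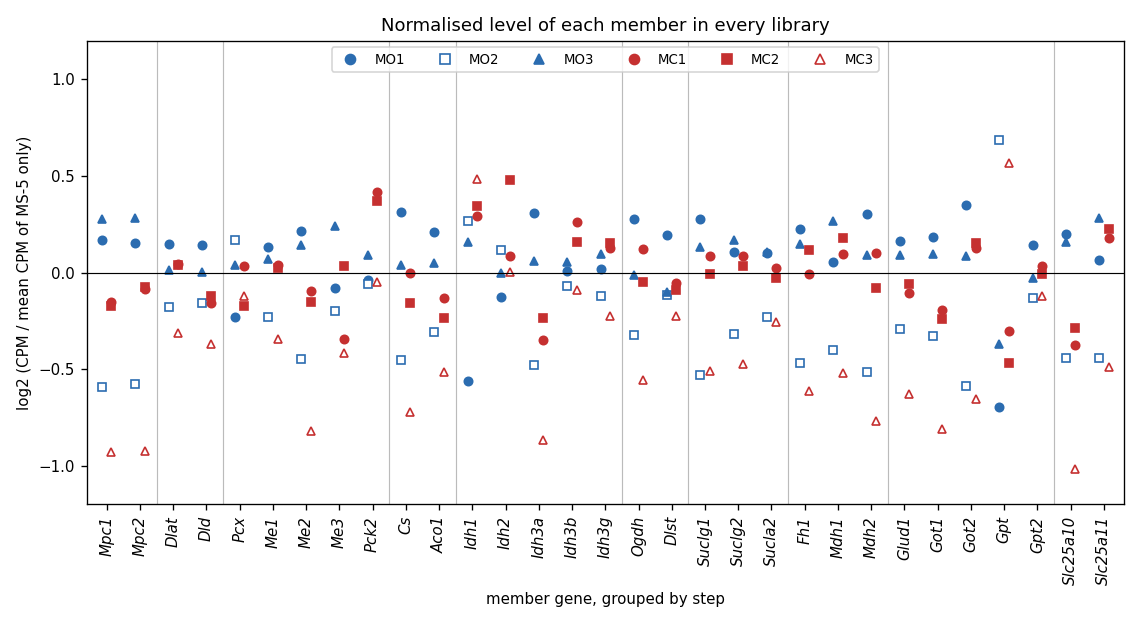
Each point is the CPM of a gene in one library, as log2 of its ratio to the mean of the 3 MS-5 only libraries (blue, left of each tick), with co-culture in red on the right and MO2 and MC3 as open symbols. The open symbols lie lowest of their colour in 27 of the 31 genes, and Idh1 is the one gene whose co-culture points all lie above its MS-5 only points.

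**Figure D2:**
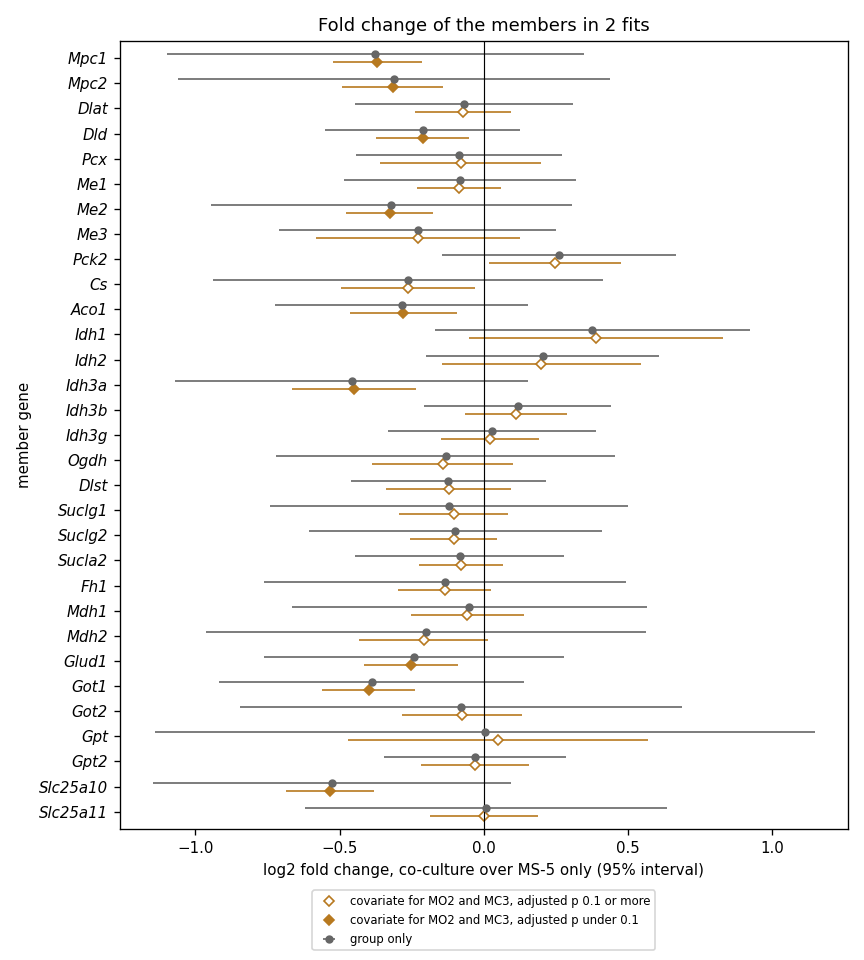
Log2 fold change of each gene, co-culture over MS-5 only, with 95% intervals from edgeR, for the fit with group only (grey circles) and with a covariate term for MO2 and MC3 (diamonds, filled at an adjusted p under 0.1). All grey intervals cross 0, the estimates of both fits lie close together, and the 9 filled diamonds are all below 0.

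Both pyruvate carrier genes had lower levels in MC3 than in MO2, and in MC1 and MC2 than in MO1 and MO3, although the groups as a whole overlapped. Mpc1 (GRCm38 chr17:8282904-8297661, plus strand) had 117, 68.7 and 126 CPM in MO1, MO2 and MO3 and 93.4, 91.8 and 54.6 CPM in MC1, MC2 and MC3, a log2 fold change of -0.38 (SE 0.30, n = 3 per group, edgeR adjusted p = 0.686). MC1 and MC2 were above MO2, which made the overlap, and the log2 fold change lay between -0.61 without MO2 and -0.16 without MC3. With the covariate, Mpc1 fell by 0.37 on the log2 scale (SE 0.06, edgeR adjusted p = 0.0173). Mpc2 (chr1:165460637-165481214, plus strand) had 43.4, 26.1 and 47.5 CPM in MS-5 only against 36.7, 37.0 and 20.6 CPM in co-culture, with a log2 fold change of -0.31 (SE 0.31, edgeR adjusted p = 0.777) that lay between -0.54 without MO2 and -0.08 without MC3. Apart from the close pair MC1 and MC2, the libraries had the same order as for its partner, and with the covariate it fell by 0.32 (SE 0.07, edgeR adjusted p = 0.0307). The ratio of Mpc1 to Mpc2 in TPM, which are scaled by transcript length, was 2.62 to 3.14 in MS-5 only against 2.53 to 3.04 in co-culture. GENCODE lists a processed pseudogene, Mpc1-ps, that held 80, 54 and 96 counts in MS-5 only against 139, 156 and 91 in co-culture, beside 1874 to 3060 counts for Mpc1, and the counting could have split reads between the copies.

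The promoter windows of both carrier genes are shown because both genes had lower levels in the same libraries, and because they were searched for the core of the hypoxia response element, the site that hypoxia-inducible factors bind in genes such as Pdk1 and Ldha. The core was taken as ACGTG or GCGTG on either strand, so that CACGT and CACGC mark the reverse strand, and ACGTG also lies within the E-box CACGTG. Windows are from RefSeq (GRCm38.p6) and hold 300 bases, 250 before and 50 after a start site, written 5′ to 3′ in the direction of the gene with matches in capitals. The first is chr17:8283537-8283836 (plus strand) and the second chr1:165461010-165461309 (plus strand), each with 1 match. A second Mpc1 window (chr17:8284204-8284503, plus strand), not printed, held 0.
Mpc1: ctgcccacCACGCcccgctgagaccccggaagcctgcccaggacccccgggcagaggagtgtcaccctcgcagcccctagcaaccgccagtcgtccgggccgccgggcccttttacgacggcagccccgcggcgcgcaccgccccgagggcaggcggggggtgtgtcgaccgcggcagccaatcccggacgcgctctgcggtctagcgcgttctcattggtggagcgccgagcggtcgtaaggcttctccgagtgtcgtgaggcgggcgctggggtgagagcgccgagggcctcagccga
Mpc2: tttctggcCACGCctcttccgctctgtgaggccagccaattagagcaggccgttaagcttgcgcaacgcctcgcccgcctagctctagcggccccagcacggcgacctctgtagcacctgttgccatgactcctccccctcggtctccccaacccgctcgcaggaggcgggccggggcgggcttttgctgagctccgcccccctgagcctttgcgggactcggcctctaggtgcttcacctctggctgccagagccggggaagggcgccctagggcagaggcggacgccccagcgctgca
Windows were found for 28 of the 31 genes (not for Me2, Idh3a and Gpt), and 17 of the 28 (60.7%) held the core in at least 1 window, as did 46.7% of all genes in the table. A match is a description of these letters only.

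Dld and Dlat encode the dihydrolipoamide dehydrogenase and the acetyltransferase core of pyruvate dehydrogenase, and DLD also serves the oxoglutarate complex. Dld had 130.2, 106 and 118 CPM in MS-5 only against 106, 109 and 91.2 CPM in co-culture (log2 fold change -0.21, SE 0.14, edgeR adjusted p = 0.599). MC1 and MC2 lay just above MO2, and otherwise the co-culture libraries were below MS-5 only. With the covariate, Dld fell by 0.21 (SE 0.07, edgeR adjusted p = 0.0702). Dlat had a log2 fold change of -0.07 (SE 0.16, edgeR adjusted p = 0.942), with 53.8 to 67.4 CPM in MS-5 only against 49.0 to 62.8 in co-culture.

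Of the 5 genes for pyruvate carboxylation, malic enzymes and PEPCK, Pck2 had a log2 fold change above 0 and the others below. Pck2, the mitochondrial PEPCK that makes phosphoenolpyruvate from oxaloacetate, had 182, 179.8 and 199 CPM in MS-5 only against 249.8, 242 and 181 CPM in co-culture. MC1 and MC2 lay above all MS-5 only libraries and MC3 within their range, which gave a log2 fold change of 0.26 (SE 0.17, edgeR adjusted p = 0.586). It was 0.25 with the covariate (SE 0.09, edgeR adjusted p = 0.119). Without MO2 and MC3, and so without the co-culture library that lay within the MS-5 only range, it was 0.39 (SE 0.10, edgeR adjusted p = 0.0921). Me2, the mitochondrial NAD-dependent malic enzyme, had 87.9, 55.4 and 83.6 CPM in MS-5 only against 70.7, 68.1 and 42.8 CPM in co-culture. The log2 fold change was -0.32 (SE 0.26, edgeR adjusted p = 0.690), between -0.51 without MO2 and -0.12 without MC3, and with the covariate Me2 fell by 0.33 (SE 0.06, edgeR adjusted p = 0.0210). The cytosolic malic enzyme Me1 had a log2 fold change of -0.08, with 96.9 to 125 CPM in MS-5 only against 89.4 to 117 in co-culture. Pcx, the pyruvate carboxylase that supplies oxaloacetate, had one of -0.09, with 40.6 to 53.6 CPM against 42.3 to 48.8. Me3, the mitochondrial NADP-dependent malic enzyme, was low, at 11.3 to 15.4 and 9.75 to 13.3 CPM. None of Me1, Pcx and Me3 passed edgeR's test with the covariate, with adjusted p-values of 0.350, 0.660 and 0.310 (edgeR) for log2 fold changes of -0.09, -0.08 and -0.23.

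At the entry of the cycle, Cs, citrate synthase, had 690.1, 405 and 570.1 CPM in MS-5 only against 553, 498 and 337 CPM in co-culture (log2 fold change -0.26, SE 0.28, edgeR adjusted p = 0.798). MC3 was lowest of all 6, MO2 lay below MC1 and MC2, and the log2 fold change lay between -0.45 without MO2 and -0.05 without MO1. With the covariate its log2 fold change was -0.26 (SE 0.10) and edgeR's adjusted p 0.104, above the threshold. Aco1, the cytosolic aconitase that also serves as an iron regulatory protein, had 65.3, 45.5 and 58.4 CPM in MS-5 only against 51.5, 47.9 and 39.4 CPM in co-culture. MO2 lay below MC1 and MC2, and MC3 was lowest. The log2 fold change was -0.29 (SE 0.18, edgeR adjusted p = 0.580), and with the covariate Aco1 fell by 0.28 (SE 0.08, edgeR adjusted p = 0.0510).

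The isocitrate dehydrogenase genes did not share a direction, with log2 fold changes from -0.46 to 0.38. Idh1, the cytosolic NADP-dependent enzyme, had 40.0, 71.2 and 66.0 CPM in MS-5 only against 72.4, 75.1 and 82.5 CPM in co-culture. It was the 1 gene of the 31 whose groups did not overlap in CPM, in the higher direction, as in 11.6% of all genes, and 0 did not overlap in the lower direction, beside 9.6%. MC1 lay only just above MO2, and MO1 was far below the other MS-5 only libraries, so that the log2 fold change of 0.38 (SE 0.23, edgeR adjusted p = 0.547) had a 95% interval from -0.17 to 0.92 and came to 0.19 without MO1. With the covariate it was 0.39 (SE 0.18, edgeR adjusted p = 0.180). In TPM its groups overlapped, with 21.1, 57.4 and 33.6 in MS-5 only against 37.4, 37.5 and 67.7 in co-culture. Idh2, the mitochondrial NADP-dependent enzyme, had 114, 135 and 124 CPM in MS-5 only against 132, 173 and 125 CPM in co-culture. MC2 alone lay clearly above the MS-5 only libraries, and without it the log2 fold change of 0.20 (SE 0.17, edgeR adjusted p = 0.698) came to 0.04. The upstream start of Idh1 (chr1:65186430-65186729, minus strand) is shown as the promoter of the one gene that was higher throughout in CPM, with 1 match to the hypoxia core in capitals, near the 3′ end of the window, and a second window of the gene (chr1:65179093-65179392, minus strand), not printed, also held 1.
Idh1: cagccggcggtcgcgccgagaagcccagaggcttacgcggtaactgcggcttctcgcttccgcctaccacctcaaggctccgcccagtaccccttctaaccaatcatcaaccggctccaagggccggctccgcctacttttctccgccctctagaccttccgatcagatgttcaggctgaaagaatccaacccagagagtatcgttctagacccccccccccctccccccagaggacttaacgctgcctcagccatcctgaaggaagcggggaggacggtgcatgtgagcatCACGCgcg

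The NAD-dependent isocitrate dehydrogenase of the cycle is a complex of a catalytic alpha subunit with beta and gamma subunits. Its alpha subunit gene Idh3a (chr9:54586334-54604661, plus strand) had 82.6, 47.8 and 69.5 CPM in MS-5 only against 52.4, 56.6 and 36.6 CPM in co-culture. MC3 was below all other libraries, and MO2 was the one MS-5 only library within the co-culture range. The log2 fold change was -0.46 (SE 0.26, edgeR adjusted p = 0.507), and with the covariate Idh3a fell by 0.45 (SE 0.09, edgeR adjusted p = 0.0219). The levels of its partners were closer between the groups. Idh3g had 95.6, 86.8 and 101 CPM in MS-5 only against 103, 105 and 81.0 CPM in co-culture (log2 fold change 0.03, SE 0.15, edgeR adjusted p = 0.981). Idh3b had 80.8 to 88.1 and 79.6 to 101 CPM, and one of 0.12 (SE 0.14, edgeR adjusted p = 0.820).

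The next 6 genes of the cycle had log2 fold changes from -0.13 to -0.08, and none passed edgeR's test. Ogdh, the first subunit of oxoglutarate dehydrogenase, had 402, 266 and 329.6 CPM in MS-5 only against 362, 322 and 226 CPM in co-culture (log2 fold change -0.13, SE 0.24, edgeR adjusted p = 0.916), and its succinyltransferase partner Dlst one of -0.12 (SE 0.14). Suclg1, the shared alpha subunit of succinyl-CoA ligase, had 130.0, 74.3 and 117 CPM against 114, 107 and 75.3, and a log2 fold change of -0.12 (SE 0.26, edgeR adjusted p = 0.937). The groups overlapped in both genes, with MO2 and MC3 lowest. The beta subunits Suclg2, used with GDP, and Sucla2, used with ADP, had log2 fold changes of -0.10 (SE 0.21) and -0.08 (SE 0.15). Fh1, fumarase, had 70.0 to 113 CPM in MS-5 only against 63.3 to 105 in co-culture, with a log2 fold change of -0.13 (SE 0.26). With the covariate none of these 6 genes passed either, with log2 fold changes from -0.14 for Ogdh to -0.08 for Sucla2.

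Mdh2, the mitochondrial malate dehydrogenase, was the most abundant of the 31 per length, at 779, 698 and 660.4 TPM in MS-5 only against 681, 578 and 587 TPM in co-culture. In CPM it had 912, 518 and 787 against 794, 700.0 and 434, a log2 fold change of -0.20 (SE 0.32, edgeR adjusted p = 0.890). MO2 and MC3 were each lowest of their group. The cytosolic Mdh1 had a log2 fold change of -0.05 (SE 0.26), with 180.3 to 287 and 167 to 270.0 CPM. With the covariate neither passed edgeR's test, at -0.21 for Mdh2 (adjusted p = 0.159) and -0.06 for Mdh1 (adjusted p = 0.655).

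Among the genes that link glutamate to the cycle, the log2 fold changes of Got1 and Glud1 were -0.39 and -0.24 and those of the other 3 lay between -0.08 and 0.00. All 5 overlapped between the groups in CPM, and none passed edgeR's test without the covariate. Got1 (chr19:43499752-43524605, minus strand), the cytosolic aspartate transaminase of the malate-aspartate shuttle, had 113, 79.5 and 106 CPM in MS-5 only against 87.2, 84.4 and 56.9 CPM in co-culture. MO2 was the one MS-5 only library below MC1 and MC2, and the log2 fold change was -0.39 (SE 0.22, edgeR adjusted p = 0.514). With the covariate Got1 fell by 0.40 (SE 0.07, edgeR adjusted p = 0.0166). Its mitochondrial counterpart Got2 had 406, 212 and 339 CPM in MS-5 only against 349, 355 and 203 CPM in co-culture (log2 fold change -0.08, SE 0.32, edgeR adjusted p = 0.975). Glud1, glutamate dehydrogenase, which forms oxoglutarate from glutamate, had 312, 228 and 298 CPM in MS-5 only against 259.7, 268 and 180.5 CPM in co-culture. MO2 was again below MC1 and MC2, and MC3 below all. The log2 fold change was -0.24 (SE 0.22, edgeR adjusted p = 0.732), and with the covariate Glud1 fell by 0.25 (SE 0.07, edgeR adjusted p = 0.0467). The pseudogenes Got2-ps1 and Glud-ps had their highest counts in MC2, with 4, 8 and 4 against 21, 124 and 26 for Got2-ps1 and 0 in each MS-5 only library against 17, 51 and 11 for Glud-ps. Those counts are few beside the 6662 to 11428 of Got2 and 6201 to 8509 of Glud1. The alanine transaminases had log2 fold changes of 0.00 for the cytosolic Gpt (SE 0.48) and -0.03 for the mitochondrial Gpt2 (SE 0.13). Gpt was the least abundant gene of the list, with 49, 160 and 54 counts in MS-5 only against 84, 55 and 161 in co-culture, and MO2 and MC3 were its highest libraries.

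The carrier gene Slc25a10 had the largest difference of the 31. SLC25A10 exchanges malate and succinate for phosphate across the inner membrane, and its gene (chr11:120491840-120499187, plus strand) had 139.9, 89.4 and 136 CPM in MS-5 only against 93.7, 99.7 and 60.1 CPM in co-culture. MC1 and MC2 were below MO1 and MO3 but above MO2, and MC3 was below all. The log2 fold change was -0.53 (SE 0.26, edgeR adjusted p = 0.438), with a 95% interval from -1.15 to 0.10, and it lay between -0.71 without MO2 and -0.33 without MC3. With the covariate Slc25a10 fell by 0.53 (SE 0.06, edgeR adjusted p = 0.0110), and without MO2 and MC3 by 0.49 (SE 0.09, edgeR adjusted p = 0.0774). Its neighbour in function Slc25a11, the oxoglutarate-malate carrier of the malate-aspartate shuttle, had 102, 71.7 and 118 CPM in MS-5 only against 110.0, 114 and 69.4 CPM in co-culture (log2 fold change 0.01, SE 0.26, edgeR adjusted p = 0.997). The promoter window of Slc25a10 (chr11:120491587-120491886, plus strand) is given as that of the gene with the largest difference, and it held no match to the hypoxia core.
Slc25a10: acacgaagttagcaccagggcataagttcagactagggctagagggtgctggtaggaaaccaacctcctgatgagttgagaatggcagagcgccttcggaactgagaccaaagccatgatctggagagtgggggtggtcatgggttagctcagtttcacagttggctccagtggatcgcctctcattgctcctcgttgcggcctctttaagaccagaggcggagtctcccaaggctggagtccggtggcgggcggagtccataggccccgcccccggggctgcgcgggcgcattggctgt

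In TPM, which the authors deposited beside the counts, the groups separated in more of the genes. In 6 genes every co-culture library lay below every MS-5 only library, which is 19.4% of the list beside 7.53% of all genes, and in 0 genes every one lay above, beside 7.68%. Slc25a10 had 82.1, 85.8 and 78.4 TPM in MS-5 only against 56.7, 56.2 and 57.5 TPM in co-culture, and the co-culture libraries sat close together. Me2 had 42.7, 41.5 and 39.5 TPM against 32.4, 31.1 and 31.9. Idh3a had 45.0, 40.7 and 37.8 TPM against 27.5, 27.3 and 31.7. These 3 genes had the widest gaps between the groups relative to their level, and in each the libraries MO2 and MC3 lay with their own group. Mpc1 had 166, 158 and 183 TPM in MS-5 only against 141, 131 and 128 in co-culture. Mpc2 had 56.5, 60.4 and 58.4 TPM against 46.6, 51.8 and 44.0. Got1 had 65.2, 75.5 and 59.3 TPM against 51.4, 48.1 and 54.1. Limma on log2(TPM + 0.5) nevertheless called 0 of the 31 genes, and Slc25a10 had its lowest adjusted p, 0.135, with a log2 difference of -0.53 on that scale. Cs narrowly overlapped, with 268, 244 and 216 TPM against 217, 186 and 205. The summed TPM of the 31 genes was 3182 ± 234 (SD, n = 3) in MS-5 only against 2906 ± 139 (SD, n = 3) in co-culture, and these ranges overlapped.

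**Figure D3:**
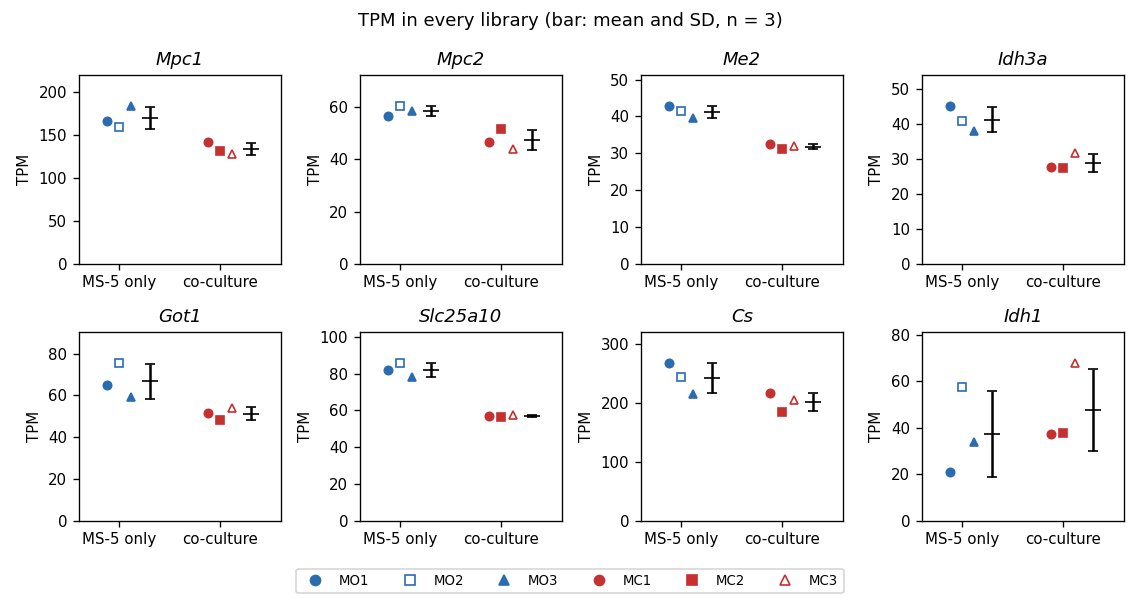
TPM of 8 genes in every library on axes that start at 0, with MS-5 only in blue, co-culture in red, MO2 and MC3 open, and the mean and SD (n = 3) as a bar. In Mpc1, Mpc2, Me2, Idh3a, Got1 and Slc25a10 all red points lie below all blue points, while Cs and Idh1 overlap.

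Part of these TPM values lies on transcripts that GENCODE does not annotate as coding, so they were also summed over protein-coding transcripts only, a choice made after the values were seen. In 5 genes the groups then did not overlap in the lower direction (the background was 9.37%), namely Mpc1, Me2, Glud1, Got1 and Slc25a10, and 4 of these were among the 6 above. In 1 gene, Pck2, they did not overlap in the higher direction (5.23%). Slc25a10 had 80.9, 74.3 and 76.0 coding TPM in MS-5 only against 53.8, 55.0 and 51.4 in co-culture, and Got1 had 63.7, 65.7 and 58.9 against 48.6, 45.0 and 47.0. On this scale the gap between the groups was wider than the range of either group in both genes. Glud1 had 124, 108 and 103 against 89.5, 102 and 99.8, with MO3 and MC2 nearly level. Pck2 had 50.0, 64.1 and 55.5 coding TPM against 73.4, 70.3 and 68.5, while 37.2% to 42.0% of its TPM lay on the retained intron transcript Pck2-210. Idh3a lost its separation, with 25.7, 22.4 and 20.6 coding TPM in MS-5 only against 18.5, 21.4 and 17.5 in co-culture. Mpc2 lost its separation too, with 53.6, 40.6 and 57.8 coding TPM against 46.2, 40.0 and 34.0. Its non-coding transcript Mpc2-203 held 3.94%, 30.5% and 0.0133% of its TPM in MS-5 only against 0.121%, 21.5% and 20.2% in co-culture. The retained intron transcript of Idh3a, Idh3a-203, held 42.9%, 40.9% and 42.0% of its TPM in MS-5 only against 26.1%, 21.1% and 42.5% in co-culture. That share was thus lower in MC1 and MC2 and not in MC3. In 4 genes (Dlat, Me3, Pck2 and Idh3a) under 60% of the TPM lay on coding transcripts in at least 1 library, and for Me3 it was 6.44% to 12.1%.

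Ratios between partner genes within a library do not depend on the scaling of that library, and 10 were compared by an exact two-sided permutation test, which cannot give a p below 0.1 with 3 libraries against 3. All 10 overlapped between the groups, with exact p-values from 0.2 to 1 (0.667 to 1 after Benjamini-Hochberg adjustment over the 10). The largest was Idh3a to Idh2, at 0.574, 0.277 and 0.454 in MS-5 only against 0.302, 0.238 and 0.228 in co-culture, a mean log2 difference of -0.71 (exact permutation p = 0.2). MO2 was the one MS-5 only library inside the co-culture range. Got1 to Got2 differed by -0.31 and Me1 to Me2 by 0.29 on the log2 scale (exact permutation p = 0.2 for each), and Mdh1 to Mdh2 by 0.19 (exact permutation p = 0.4). Idh1 to Idh2, the cytosolic to the mitochondrial NADP-dependent enzyme, differed by 0.21 (exact permutation p = 0.4). The ratios within the NAD-dependent complex were added after the values were seen and are given with no test. Idh3a to Idh3b was 0.703, 0.424 and 0.574 in MS-5 only against 0.360, 0.394 and 0.341 in co-culture. Idh3a to Idh3g was 0.459, 0.305 and 0.379 against 0.260, 0.271 and 0.253. In both ratios all co-culture libraries lay below all MS-5 only libraries, but these values include the retained intron transcript of Idh3a. Over protein-coding transcripts only, both ratios overlapped between the groups, with Idh3a to Idh3b at 0.404, 0.252 and 0.323 against 0.244, 0.319 and 0.193, and Idh3a to Idh3g at 0.326, 0.212 and 0.248 against 0.215, 0.253 and 0.173. Idh3b to Idh3g overlapped, at 0.654 to 0.718 and 0.688 to 0.742.

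**Figure D4:**
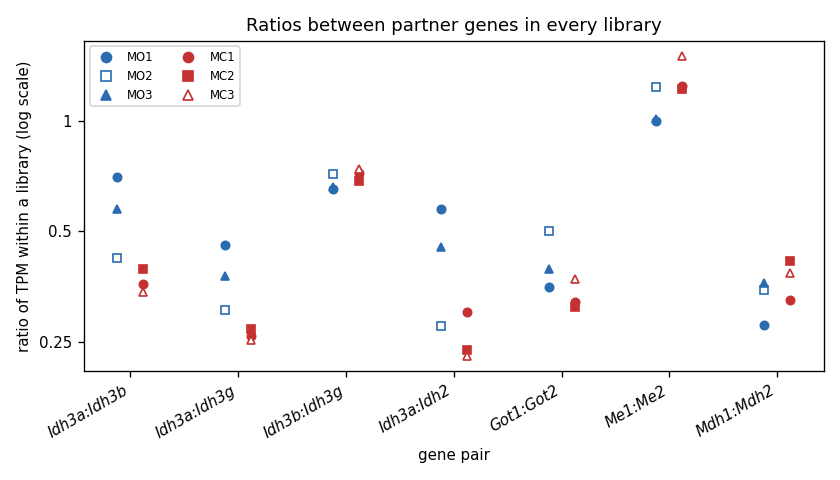
Ratio of TPM between partner genes in each library, on a log scale, with MS-5 only in blue, co-culture in red, and MO2 and MC3 open. Red points lie below all blue points for Idh3a to Idh3b and Idh3a to Idh3g, and the other 5 pairs overlap. Over protein-coding transcripts only, those first 2 overlap as well.

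The wider pathway was followed through 52 further genes, of which 46 were tested. By edgeR's test 2 were higher in co-culture (3.71% of all genes were) and 0 were lower (0.666%), 6 had an unadjusted p under 0.05 in the higher and 3 in the lower direction (8.62% and 5.63%), and the median log2 fold change was -0.06. Pdk1, a kinase that inactivates pyruvate dehydrogenase, had 27.5, 27.2 and 32.1 CPM in MS-5 only against 148, 116 and 133 CPM in co-culture. It rose by 2.19 on the log2 scale (SE 0.15, edgeR adjusted p = 0.0269), with no overlap between the groups. Slc25a13, an aspartate-glutamate carrier, also passed (edgeR adjusted p = 0.0734), from at most 1 count in each MS-5 only library to 1.13, 6.31 and 1.57 CPM in co-culture. It was highest in MC2, where the summed leukocyte markers were highest too, and their part in the result was not tested. Neither gene passed in the fits without 1 of the MS-5 only libraries, where Pdk1 had log2 fold changes of 2.15 to 2.27 and edgeR adjusted p-values of 0.136 to 0.300. Among the 31 listed genes, MC2 was the highest co-culture library in 12 (38.7%, against 32% of all genes). With the covariate, 9 of the 46 were higher and 10 lower, beside 13.9% and 16.4% of all genes. The 10 included the pyruvate dehydrogenase genes Pdha1, Pdhb and Pdhx, with log2 fold changes from -0.55 for Pdhx to -0.17 for Pdha1, and Sdhb (-0.21) and Sdhd (-0.27) of succinate dehydrogenase. The 9 included the kinases Pdk1, Pdk2 and Pdk4, the citrate carrier Slc25a1 (0.51) and Acss2 (0.96), which makes acetyl-CoA from acetate. In CPM without any covariate, the groups did not overlap for 7 genes in the higher direction (the background was 11.6%) and 5 in the lower (9.6%).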

How the data were processed

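RNA was measured in 3 libraries of MS-5 cells grown alone and in 3 of MS-5 cells grown with SKM-1, grouped by the sample titles. The authors quantified reads of stranded mRNA libraries with Kallisto (FastQC 0.11.7, kallisto 0.43.0 and sleuth 0.30.0 in the submitters' processing notes) against a mouse GRCm38 (mm10) cDNA index. The deposited estimated counts, 1 per transcript, are not normalised between libraries. The authors' TPM, also deposited, are scaled by effective length, with equal totals for all libraries. The length and effective length columns, other values in bases, were used only to match transcripts and for a length offset. Transcripts were matched to GENCODE M21 (GRCm38) by identifier, version and length (116728 of 118489), and the other 1761, with 0.476% to 0.562% of the counts, were left out. The index held mouse transcripts, so human reads could count only where they resemble them.

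Estimated counts were summed per gene, rounded, filtered by filterByExpr (13221 of 35968 genes) and normalised by TMM. The groups were compared with edgeR 4.0.16 in R 4.3.3 (quasi-likelihood, two-sided, Benjamini-Hochberg over all genes tested, threshold 0.1). The deposited totals, before the unmatched transcripts and the low genes were left out, were 23978881 to 35694987 estimated counts per library. All 31 genes exceeded 700 counts in every library except Gpt and Me3. Standard errors are the log2 fold change over the square root of F. Alternatives were DESeq2 1.42.0, limma 3.58.1 on log2(TPM + 0.5), other scalings and filters, a length offset and a replicate block. Further ones were a covariate for MO2 and MC3 (the split on the second principal component above), libraries left out, and thresholds of 0.05 and 0.01. The tests were tried on simulated data. The 31 genes, the further lists and the covariate were chosen with earlier results of these data known. Values are given in full for genes past the threshold or with groups that do not overlap, and for the gene of each step with the highest mean TPM. Genes named beyond that rule were chosen after their values were seen. Sleuth, which the authors used, was not used here.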

Additional observations from a re-analysis of the deposited data

How the results depend on the processing

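The direction and the call of a listed gene were the same in 344 of 372 comparisons with an alternative on all 6 libraries or without MO2 and MC3, with the gene past the threshold only under the alternative in 13 and of the other sign in 15, where no value exceeded 0.26 in size. Reversed log2 fold changes were 0.0444 for Pcx without MO2 and MC3 and -0.00011 for Slc25a11 with the covariate. On log2(TPM + 0.5), with pseudocounts of 0.1 and 1, and with the length offset, the values were 0.0397, 0.0399, 0.0395 and 0.0715 for Fh1, -0.167, -0.180, -0.152 and -0.257 for Gpt, and 0.101, 0.104, 0.0980 and 0.105 for Gpt2. Gpt also came to -0.0057 with library size alone. Estimated counts in place of TPM reversed the log2 ratios Sucla2 to Suclg2 (0.0243) and Gpt to Gpt2 (0.0850). Leaving out each library in turn turned the sign in 30 of 186 comparisons, in 15 genes, and called 0 of the 31. The lowest and highest log2 fold changes were -0.155 to 0.0401 for Dlat, -0.165 to 0.00131 for Pcx, -0.19 to 0.0303 for Me1, -0.0409 to 0.139 for Idh3g, -0.289 to 0.0476 for Ogdh, -0.182 to 0.00895 for Dlst, -0.332 to 0.0632 for Suclg1, -0.239 to 0.0585 for Suclg2, -0.327 to 0.0563 for Fh1, -0.22 to 0.137 for Mdh1, -0.407 to 0.0149 for Mdh2, -0.307 to 0.153 for Got2, -0.388 to 0.526 for Gpt, -0.0966 to 0.0705 for Gpt2 and -0.177 to 0.201 for Slc25a11. Those of the log2 ratios that turned were -0.173 to 0.0686 for Sucla2 to Suclg2, -0.784 to 0.23 for Gpt to Gpt2, -0.107 to 0.0392 for Mpc1 to Mpc2, -0.144 to 0.0618 for Aco1 to Cs and -0.163 to 0.175 for Ogdh to Dlst. Without a change of sign, the values ran from -0.653 to -0.252 for Idh3a, -0.423 to -0.144 for Aco1, -0.534 to -0.218 for Got1, -0.374 to -0.0834 for Glud1, -0.290 to -0.112 for Dld, 0.166 to 0.393 for Pck2, -0.385 to -0.0946 for Me3, 0.187 to 0.528 for Idh1, 0.0412 to 0.294 for Idh2, 0.0306 to 0.210 for Idh3b and -0.191 to -0.00421 for Sucla2. The covariate called 9 and leaving out MO2 and MC3 called 4, with 3 genes shared.

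Over all genes, 579 were called, against 1268 by DESeq2, 356 by limma, 3999 with the covariate, 1702 without MO2 and MC3, 2 at a threshold of 0.05 and 0 at 0.01, and 0 to 549 with a library left out. The replicate block called 444, of which 371 were among the 579, and 0 of the 31. Libraries with the same number did not deviate together in every pair, with correlations across genes of 0.53, -0.29 and -0.52 for the numbers 1, 2 and 3, so the numbers were not taken as pairs. The cause of these differences was not tested. The lowest depth was behind Gpt, with 49 to 161 counts per library, and Me3, with 308 to 356, while every other gene of the list had over 700.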
